A study of Mus musculus with 16 samples.

Results

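The major histocompatibility complex (MHC) genes and the genes that load peptides onto MHC molecules were followed in the livers of mice that lacked selenoproteins in hepatocytes, carried a mutant form of the stress sensor KEAP1, or both. The 35 genes are defined by symbol, with no measured value in the rule, out of 18209 genes with an identifier. They were the 25 symbols that begin with H2-, the mouse MHC, and B2m, Tap1, Tap2, Tapbp, Psmb8, Psmb9, Psmb10, Nlrc5, Ciita and Cd74. A single H2- symbol ending in -ps was left out by that rule. The set held 2 classical class I heavy chains, 13 class Ib or other class I heavy chains, the class I light chain, 10 class II genes, 6 genes of peptide supply, 2 transactivators and H2-Ke6, a steroid dehydrogenase gene that only bears the locus name.

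RNA from whole liver of 20-day-old mice, labelled male, was sequenced after rRNA removal, with 4 libraries in each of 4 genotypes. By its reads 1 compound mutant liver was female, as given below. Every mouse carried floxed Trsp, the gene of the selenocysteine tRNA. The control was Trsp fl/fl, and the Trsp knockout was Trsp fl/fl::AlbCre. The KEAP1 mutant carried the knock-in Keap1 C226S&C613S homo together with Trsp fl/fl, and the compound mutant carried that knock-in together with Trsp fl/fl::AlbCre. Cre was driven by the albumin promoter, so Trsp was removed in hepatocytes and the other liver cells kept it, whereas the homozygous substitution of 2 KEAP1 cysteines by serine was present in all cells. The study asked whether these cysteines sense the loss of selenoproteins. The labels number the replicates without naming the animals, so p-values measure the spread between these libraries.

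Class I molecules present peptides made inside the cell to CD8 T cells, and nearly all cells express them. The immunoproteasome subunits Psmb8, Psmb9 and Psmb10 cut proteins into peptides, the transporter Tap1 and Tap2 moves the peptides into the endoplasmic reticulum, and Tapbp (tapasin) helps to load them onto a heavy chain that is paired with B2m. Class II molecules present peptides taken up from outside to CD4 T cells and are made mostly by B cells, dendritic cells and macrophages, with the invariant chain Cd74 as their chaperone and H2-DM and H2-O as their peptide editors. Nlrc5 is the transactivator of class I genes and Ciita that of class II genes, and interferon gamma raises both programmes. H2-Q10 is a class Ib gene known for secretion by hepatocytes.

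All 35 genes were found in the GENCODE M21 annotation of GRCm38, and 30 of them lay on chromosome 17 between positions 33915899 (Tapbp) and 37274484 (H2-M3), a stretch of 3.36 Mb. The other 5, B2m, Nlrc5, Psmb10, Ciita and Cd74, lay on other chromosomes. The class I genes are close copies of each other, and H2-K2 is annotated as a transcribed pseudogene and H2-Ea, H2-Q5 and H2-T10 as polymorphic pseudogenes. How reads were shared between such copies was decided at quantification with another GENCODE release, so single class I values are uncertain to that extent.

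RefSeq promoters, 250 bases before to 50 after the start in GRCm38.p6, were at hand for 24 of the 35 genes. Upstream stretches of 4 class I genes with both a kappa B and an interferon match are shown, as the class II promoters of this set carried neither. Capitals mark letters that match GGGGANTCC, a kappa B site, and GAANNGAAA, an interferon-stimulated response element, on either strand.
H2-K1 (minus strand, chr17:34000411-34000470): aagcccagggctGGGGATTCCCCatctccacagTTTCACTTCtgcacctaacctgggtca
H2-D1 (plus strand, chr17:35262911-35262970): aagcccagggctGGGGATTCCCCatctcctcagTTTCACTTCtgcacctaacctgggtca
H2-Q7 (plus strand, chr17:35439010-35439069): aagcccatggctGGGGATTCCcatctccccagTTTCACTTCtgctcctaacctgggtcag
H2-Q10 (plus strand, chr17:35469903-35469962): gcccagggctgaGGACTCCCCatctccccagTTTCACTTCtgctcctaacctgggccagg
The H2-K1 stretch lay 123 to 64 bases before the start and the H2-D1 stretch 183 to 124 bases before it, and in both genes kappa B matches in both orientations overlapped. The kappa B letters were found in 5 of 10 class I promoters and in 0 of 7 class II promoters, against 1.17% of 27025 promoters. The interferon element was found in 7 of 10 class I and 0 of 7 class II promoters, against 7.56% of all promoters. Among the class I genes, H2-Q2, H2-T22 and H2-T23 had neither match. A match is a string of letters and does not show that a factor was bound.

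Class II promoters are shown for contrast, with capitals on AGCAAC, the core of the X1 box, and on the reverse complement of CCAAT, the Y box core.
H2-Eb1 (plus strand, chr17:34305763-34305831): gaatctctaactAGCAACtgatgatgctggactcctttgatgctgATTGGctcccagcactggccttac
H2-Ob (plus strand, chr17:34238805-34238873): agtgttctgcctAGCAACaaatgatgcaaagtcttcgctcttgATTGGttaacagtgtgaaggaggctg
The X1 core was found in 3 of 7 class II and 2 of 10 class I promoters, against 14.8% of all promoters, and CCAAT in 6 of 7 and 9 of 10, against 37.9%.

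The libraries held 11386721 to 19164140 reads on the genes of the table. Values are given as normalized counts, reads divided by the size factor of the library, and fold changes as differences of log2(normalized count + 4), which understate the change of low genes. The Trsp transcript was not analysed here, but selenoprotein transcripts separated the Cre genotypes: Gpx1 lay between 8692 and 18758 in the 8 livers without Cre and between 2759 and 4060 in the 8 livers with it. Compound mutant replicate 1, labelled male, held 28799 Xist reads against 22 to 50 in the other 15, and 2 reads on 4 Y chromosome genes against 1830 to 3066. By these reads it was a female liver, so sex differed within the compound mutant alone. Compound mutant replicates 2 and 3 stood apart in the H2 region itself. There H2-Ea had 51.1 and 48.5 normalized counts, against 0 to 3.0 in the other 14 libraries. KEAP1 mutant replicates 2 and 4 stood apart in interferon-responsive genes, with 2838 and 3423 normalized counts of the GTPase Igtp, against 260.1 to 1231 in the other 14. Calls that are lost without these libraries are given with and without them.

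Of the 35 genes, 32 passed the filter of 10 normalized counts in at least 4 libraries and were tested with limma over 15781 genes. Among these 32, the KEAP1 mutant had the highest mean in 25, the control and the compound mutant in 3 each and the Trsp knockout in 1. The lowest mean belonged to the compound mutant in 15, to the Trsp knockout in 13, to the control in 3 and to the KEAP1 mutant in 1. This order was not counted over all tested genes. The 4 comparisons below share genotypes. The KEAP1 mutant libraries enter both the knockout effect with mutant KEAP1 and the substitution effect with intact Trsp, so a high value in them moves both.

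**Figure D1:**
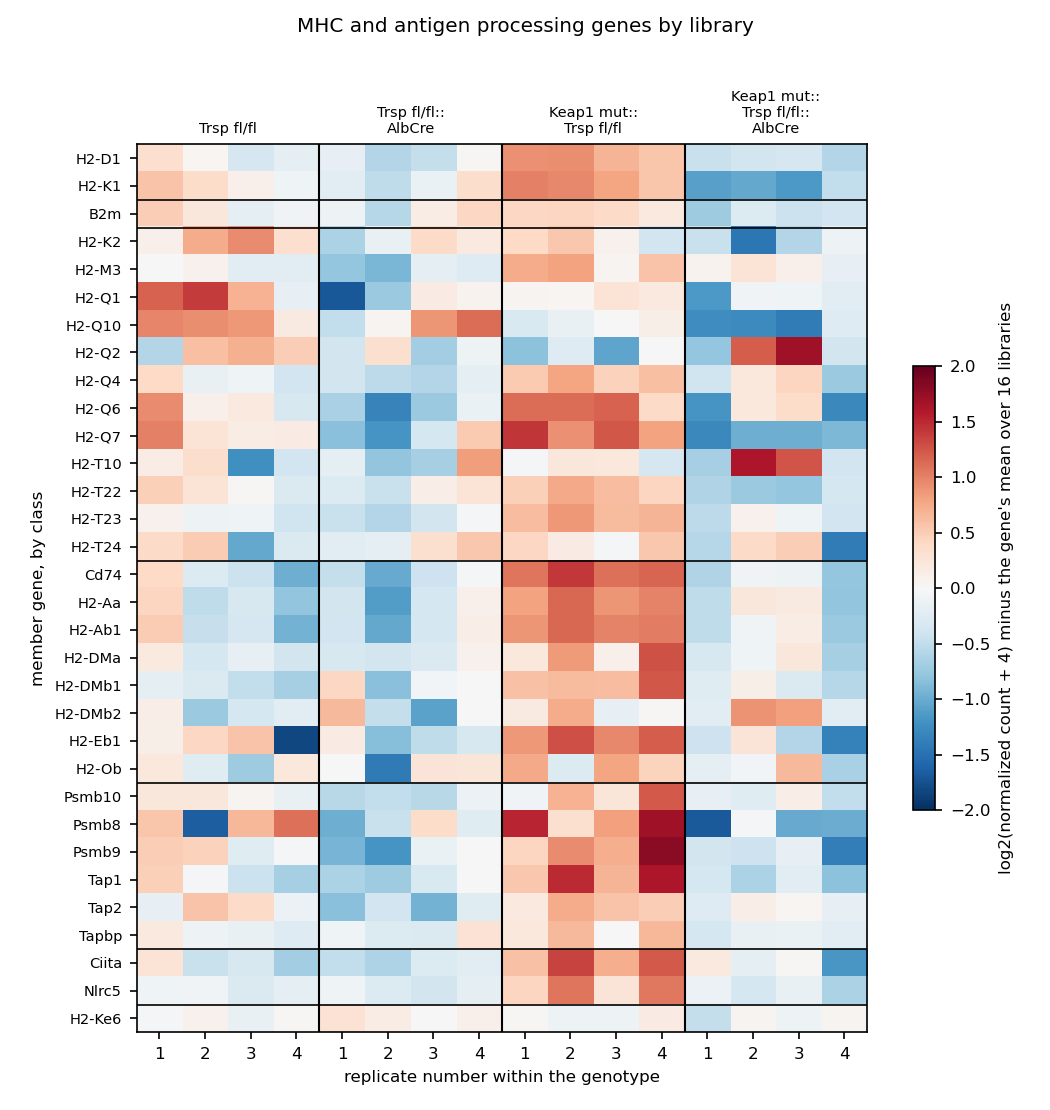
Heat map of the 32 tested genes (rows, by class) in 16 libraries (columns, by genotype and replicate number); colour is log2(normalized count + 4) minus the mean of the gene over the 16 libraries, clipped at 2 in either direction, and "Keap1 mut" is Keap1 C226S&C613S homo. The KEAP1 mutant columns are red for most genes, and compound mutant replicates 2 and 3 are red for H2-Q2 and H2-T10.

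Loss of Trsp in livers with mutant KEAP1 went with lower transcripts of both classical class I genes, 3 class Ib genes, 2 class II genes, 2 genes of peptide supply and Nlrc5. The comparison of the compound mutant with the KEAP1 mutant asks what selenoprotein loss does when KEAP1 lacks these cysteines. By the thresholds of the study (absolute log2 fold change over 1 and adjusted p under 0.01), H2-K1, H2-D1, H2-Q7, H2-T22 and Cd74 fell, 5 of 32 genes against 0.101% of all tested genes called lower. At an adjusted p under 0.05 without a fold limit, 10 of 32 fell and 0 rose, against 0.418% of all genes called lower. Limma voom on the recovered reads called 11 of 32 lower and 0 higher at an adjusted p under 0.05, and its share over all tested genes was not counted. At an unadjusted p under 0.05 limma had 25 lower and 0 higher, where 7.08% of all tested genes were lower. Log2 fold changes of the 32 genes had a median of -0.95, beside -0.0049 for all tested genes. The compound mutant was not tested against the control. Control and compound mutant means were 707 and 651 normalized counts for Cd74, 212 and 206 for H2-Ab1, and 339 and 307 for Nlrc5. They were 2200 and 2060 for H2-T23, 276 and 210 for Tap1, 123 and 73.0 for Psmb9, and 4652 and 3480 for H2-D1. For H2-T22 they were 952 and 560, for H2-K1 5360 and 2375, and for H2-Q7 227 and 79.2.

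H2-K1 and H2-D1, the classical heavy chains, had the lowest adjusted p of the 32 genes. H2-K1 had 9032, 8707, 7703 and 6601 normalized counts in the KEAP1 mutant and 2112, 2196, 2025 and 3168 in the compound mutant. H2-D1 had 8868, 8994, 7525 and 6875 in the KEAP1 mutant and 3466, 3623, 3704 and 3124 in the compound mutant. Every compound mutant liver was below every KEAP1 mutant liver for both genes. H2-K1 changed by -1.77 ± 0.19 on the log2 scale (SE, by limma, adjusted p = 0.000271), to 0.294 times its level, and H2-D1 by -1.21 ± 0.16 (by limma, adjusted p = 0.00148). Both stayed under an adjusted p of 0.05 without the 2 H2-Ea libraries (by limma, adjusted p = 0.0153 for H2-K1 and 0.0183 for H2-D1). Without the 2 high Igtp libraries the limma adjusted p was 0.00366 for H2-K1 and 0.0151 for H2-D1.

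B2m, the light chain shared by class I molecules, had 13235, 13332, 12886 and 11374 normalized counts in the KEAP1 mutant and 6058, 8173, 7363 and 7579 in the compound mutant. The groups did not overlap, but the log2 fold change of -0.81 ± 0.19 did not pass (by limma, adjusted p = 0.0661).

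Among the 12 tested class Ib and other heavy chains, 3 fell at an adjusted p under 0.05. H2-Q7, a member of the Qa-2 family, had 456, 317, 399.7 and 293 normalized counts in the KEAP1 mutant and 65.3, 82.01, 82.4 and 87.03 in the compound mutant. Its highest compound mutant value was under its lowest KEAP1 mutant value, with a log2 fold change of -2.14 ± 0.29 (by limma, adjusted p = 0.00249), the largest fall among the 32. H2-T22, a ligand of some gamma delta T cells, had 1186, 1445, 1318 and 1153 against 563, 511, 498 and 667 normalized counts. Its groups did not overlap and its log2 fold change was -1.19 ± 0.18 (by limma, adjusted p = 0.00404), which rose to 0.0932 without the 2 H2-Ea libraries and 0.057 without the 2 high Igtp libraries. H2-T23 encodes Qa-1, which displays leader peptides of other class I chains to natural killer cells. It had 3664, 4359, 3707 and 3825 against 1646, 2528, 2231 and 1834 normalized counts, again with no overlap, and a log2 fold change of -0.93 ± 0.15 (by limma, adjusted p = 0.00663, and 0.0811 without the 2 high Igtp libraries).

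The other 9 class Ib and other heavy chains did not pass, with log2 fold changes from -1.42 for H2-Q6 to 0.97 for H2-Q2. H2-Q6 and H2-Q4 had compound mutant values of 68.02 to 223 and 230.1 to 522 normalized counts against 224 to 393 and 536 to 672 in the KEAP1 mutant, and in both genes the 2 highest compound mutant values were those of the H2-Ea libraries. Without these libraries both genes passed an adjusted p of 0.05. H2-Q1 had 115, 113, 134 and 127 against 47.5, 105, 104 and 94.03 normalized counts, which do not overlap, yet its log2 fold change was -0.52 ± 0.39 (by limma, adjusted p = 0.615). The 2 most positive values among the 32 were those of H2-Q2 and H2-T10 (log2 fold change 0.43), neither of which passed, and both rested on compound mutant replicates 2 and 3. Without those libraries all 32 genes had a negative log2 fold change.

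H2-Q10, the heavy chain that hepatocytes secrete, had 6478, 7176, 8008 and 8677 normalized counts in the KEAP1 mutant and 3355, 3294, 3004 and 6675 in the compound mutant. The groups overlapped through compound mutant replicate 4, and the log2 fold change was -0.97 ± 0.32 (by limma, adjusted p = 0.188). The 8 hepatocyte marker genes had a median log2 fold change of -0.45 in this comparison. By limma 0 of them were at an adjusted p under 0.05 and 2 at an unadjusted p under 0.05. In 3 of the 8 (Alb, Cyp2e1 and Ttr) every compound mutant liver was below every KEAP1 mutant liver, against 3.71% of all tested genes. The summed level of the 8 markers, most of it Alb, was 1902600 to 2237100 normalized counts in the KEAP1 mutant and 882580 to 1806300 in the compound mutant. Its part in the class I result was not tested.

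In class II, 7 of 8 tested genes had a negative log2 fold change and 2 fell at an adjusted p under 0.05. Cd74 had 1764, 2229, 1793 and 1873 normalized counts in the KEAP1 mutant and 547, 794, 777 and 486 in the compound mutant. No compound mutant liver reached the lowest KEAP1 mutant liver, and the log2 fold change was -1.58 ± 0.25 (by limma, adjusted p = 0.00777), with 0.0202 without the 2 H2-Ea libraries and 0.0817 without the 2 high Igtp libraries. H2-Ab1, the beta chain of I-A, had 458, 551, 492 and 508 against 172, 234, 274 and 145 normalized counts. Its groups did not overlap and its log2 fold change was -1.31 ± 0.28 (by limma, adjusted p = 0.0445). That call was kept when control replicate 1 or 4 or Trsp knockout replicate 2 or 4 was left out, and lost in the 12 other fits that left out 1 library. Without the 2 H2-Ea libraries the limma adjusted p for H2-Ab1 was 0.0773, and without the 2 high Igtp libraries 0.201.

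H2-Aa, the alpha chain partner of H2-Ab1, had 426, 539.9, 449 and 486 against 169.7, 284, 275 and 138 normalized counts and a log2 fold change of -1.18 ± 0.29 (by limma, adjusted p = 0.0712). H2-Eb1, the I-E beta chain, ran from 117 to 158 in the KEAP1 mutant and from 22.01 to 75.8 in the compound mutant, and H2-DMb1, a peptide editor chain, from 73.95 to 119 and 31.01 to 52.03. None of these 3 genes overlapped between the groups, and none passed the adjusted p of 0.05. H2-DMa had 68.5 to 159.6 against 39.01 to 75.1 normalized counts, which overlapped, with a log2 fold change of -0.82 ± 0.26 (by limma, adjusted p = 0.157).

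**Figure D2:**
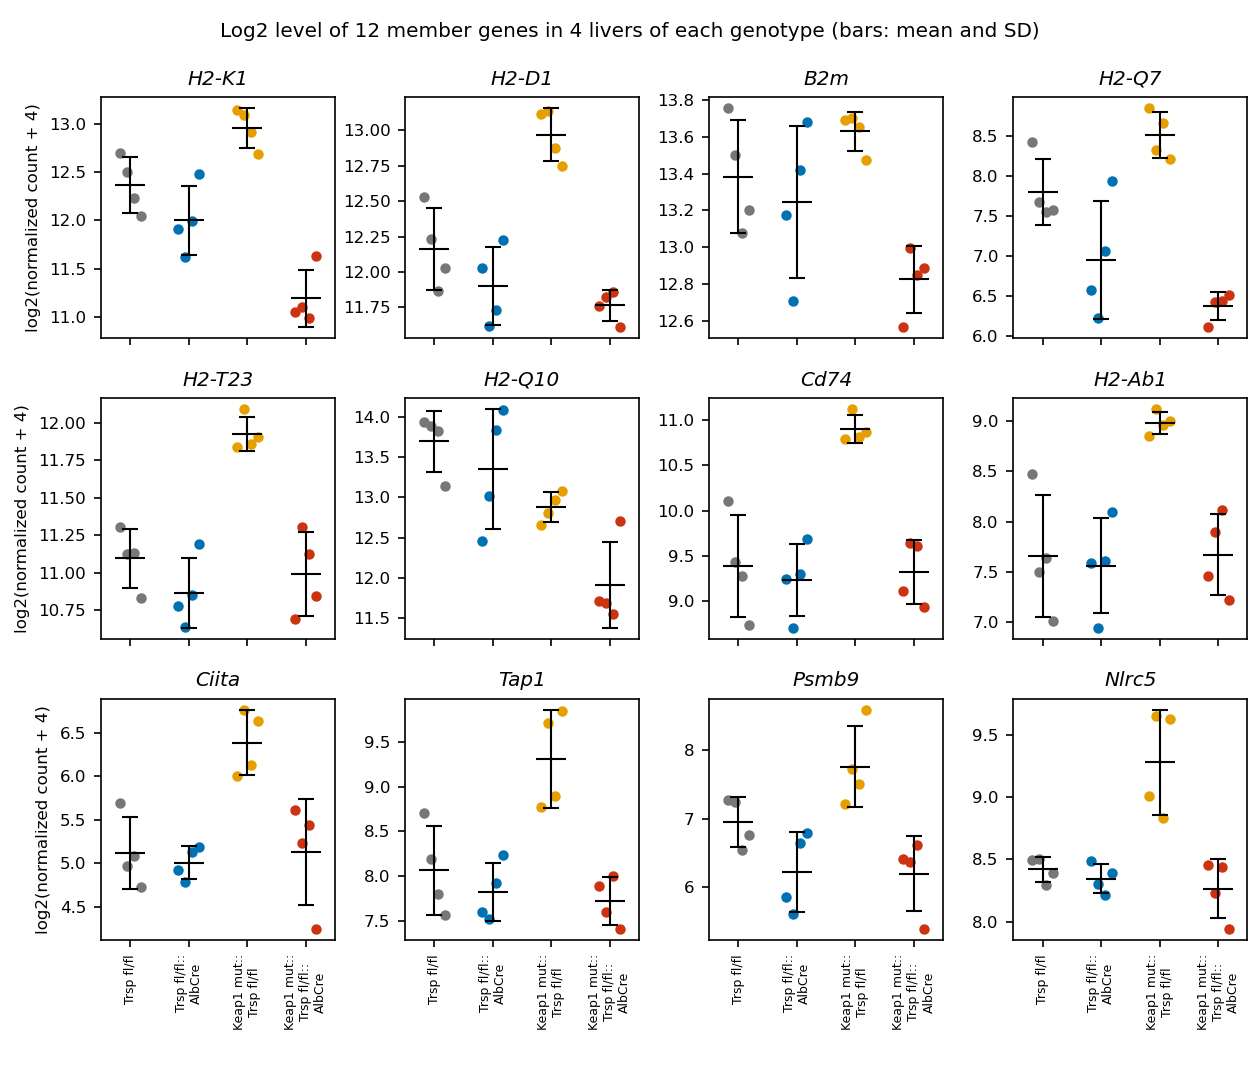
Log2(normalized count + 4) of 12 genes (vertical axis, a separate range for each gene) in 4 livers of each genotype (points), with the mean and SD (bars); "Keap1 mut" is Keap1 C226S&C613S homo. The KEAP1 mutant points sit above all compound mutant points for every gene drawn except H2-Q10.

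All 6 peptide supply genes had negative log2 fold changes in the same comparison, and 2 passed. Tap1, 1 chain of the peptide transporter, had 432, 836, 474 and 919 normalized counts in the KEAP1 mutant and 232, 189.6, 252 and 166 in the compound mutant. Its groups did not overlap, with KEAP1 mutant replicates 2 and 4 highest, and the log2 fold change was -1.59 ± 0.27 (by limma, adjusted p = 0.0126). Without those 2 libraries it was -1.11 (by limma, adjusted p = 0.126), and without replicate 2 alone the limma adjusted p was 0.0607. Without the 2 H2-Ea libraries it was 0.0947. Psmb9 had 144, 207, 178 and 381 against 81.1, 78.5, 94.3 and 38.01 normalized counts and a log2 fold change of -1.56 ± 0.34 (by limma, adjusted p = 0.0491). KEAP1 mutant replicate 4 was highest for Psmb9, and the call was kept without Trsp knockout replicate 2 or 4 and lost in the 14 other fits that left out 1 library. Without the 2 high Igtp libraries Psmb9 was at -1.16 (by limma, adjusted p = 0.252), and without the 2 H2-Ea libraries the limma adjusted p was 0.13.

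The other chain of the transporter, Tap2, had the smallest difference of the 6, with 139 to 204 normalized counts in the KEAP1 mutant and 101 to 133 in the compound mutant (log2 fold change -0.56 ± 0.20, limma adjusted p = 0.221). Psmb8 had 93.1, 38.4, 55.5 and 105 against 6.53, 29.1, 12.8 and 13.01 normalized counts, the second most negative log2 fold change of the 32 (-2.02 ± 0.53) with a wide error (by limma, adjusted p = 0.089). Tapbp and Psmb10 had log2 fold changes of -0.60 ± 0.16 and -0.72 ± 0.22 and did not pass.

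Both transactivators separated the groups. Nlrc5 had 512, 799.8, 452 and 789 normalized counts in the KEAP1 mutant and 347, 295, 343 and 242 in the compound mutant. KEAP1 mutant replicates 2 and 4 were highest, no values overlapped, and the log2 fold change was -1.02 ± 0.17 (by limma, adjusted p = 0.0107). Without these 2 libraries the change was -0.66 (by limma, adjusted p = 0.0858), and without the 2 H2-Ea libraries the limma adjusted p was 0.0773. Ciita had 60.03, 105, 66.1 and 95.6 against 44.8, 33.5, 39.4 and 15 normalized counts, with no overlap and a log2 fold change of -1.25 ± 0.29 that did not pass (by limma, adjusted p = 0.0612).

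Counted over the tested genes, 21 of 32 had every compound mutant liver below every KEAP1 mutant liver, against 3.71% of all tested genes. Leaving out compound mutant replicate 1, the library with Xist reads, left 8 of 32 genes lower at an adjusted p under 0.05. Leaving out both H2-Ea libraries left 7 lower, 5 of them among the 10. Without both high Igtp libraries 3 were left, H2-K1, H2-D1 and H2-Q7. The share of all tested genes called in these fits was not counted. A loss of calls in this set therefore cannot be told apart from one over all genes.

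Values of interferon-responsive genes and of markers of other cells are given beside this comparison. Of the 24 genes of an interferon signalling and response list, 23 were lower in the compound mutant, at a median of -0.57 on the log2 scale, and only Igtp passed (-2.38 ± 0.47, limma adjusted p = 0.0243). Without the 2 KEAP1 mutant libraries that stood apart by its values, Igtp was at -1.42 ± 0.41 (by limma, adjusted p = 0.18), and without the 2 H2-Ea libraries or compound mutant replicate 1 the limma adjusted p was 0.164 and 0.0715. The summed level of the 24 genes was 15651 to 36698 normalized counts in the KEAP1 mutant and 10510 to 13678 in the compound mutant, which do not overlap. Taken singly, 4 of the 24 genes did not overlap, against 3.71% of all tested genes. A few abundant genes weigh most in the sum, and Iigp1 alone had 4416 to 15139 and 1914 to 2945. The 8 B cell markers were lower in 8 of 8, with a median of -0.34, 0 at an adjusted p under 0.05, and overlapping sums of 341 to 802 and 261 to 573. The 10 Kupffer cell markers were lower in 9 of 10 (median -0.43, 0 at an adjusted p under 0.05), with sums of 7269 to 17035 and 4731 to 11341. T and natural killer cell markers were lower in 8 of 8 tested (median -0.55, 0 at an adjusted p under 0.05), and dendritic cell markers in 4 of 6 (median -0.22). Monocyte and neutrophil markers went the other way, higher in 7 of 8 (median 0.36), as did erythroid markers, higher in 6 of 6 (median 0.72), with 0 of either at an adjusted p under 0.05 and 0 at an unadjusted p under 0.05 by limma. At an unadjusted p under 0.05 limma had 9 of the 24 interferon genes, 0 of the 8 B cell markers and 2 of the 8 hepatocyte markers. Kupffer cell, T and natural killer cell and dendritic cell markers had 1 each at this limit. Of all 15781 tested genes, 1117 were lower and 1029 higher at the same limit. The part of these genes in the MHC result was not tested. In bulk liver, fewer cells of a type and less RNA per cell cannot be told apart.

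**Figure D3:**
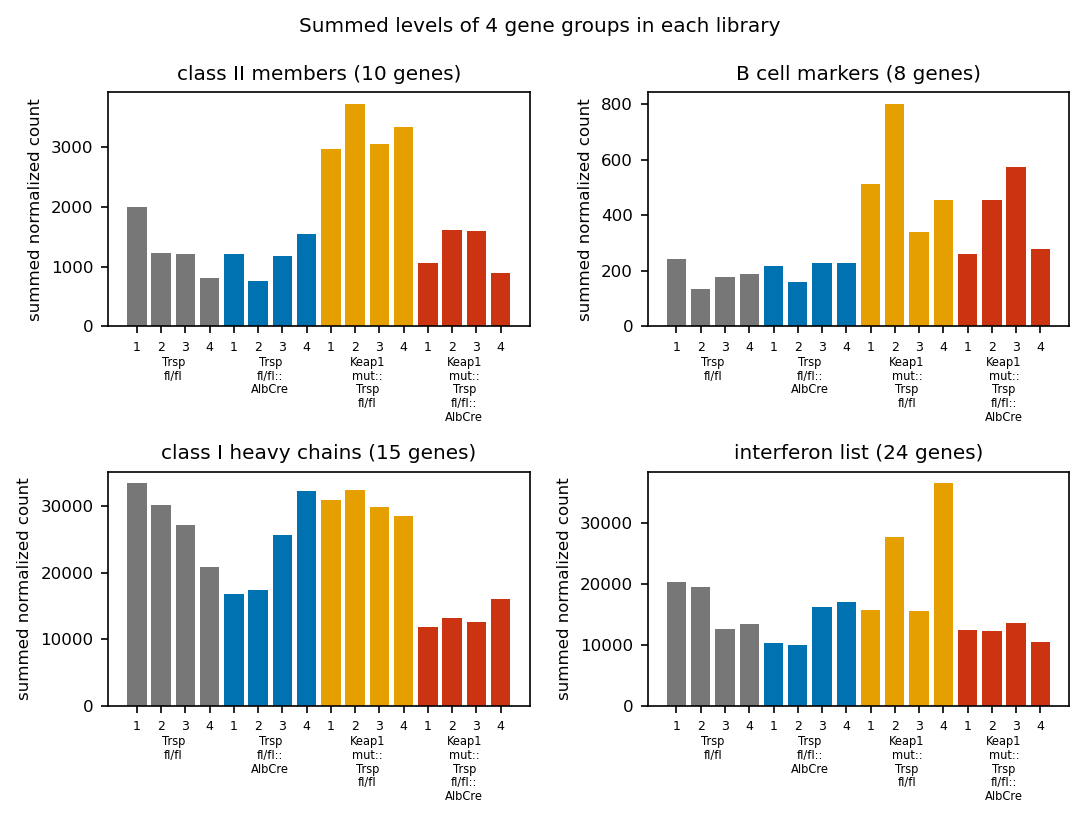
Summed normalized counts (vertical axes, from 0) of the class II genes, the B cell markers, the class I heavy chains and the interferon list in each of the 16 libraries (bars, by genotype and replicate number); "Keap1 mut" is Keap1 C226S&C613S homo. Class II sums are 2959.8 to 3722 in the KEAP1 mutant and at most 1998 in the other 12 libraries, and B cell marker sums exceed every control and Trsp knockout library in all 8 libraries with mutant KEAP1.

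In livers with intact Trsp, the KEAP1 substitution went with higher Cd74 and H2-T23, and 28 of 32 genes had a positive log2 fold change. This comparison, the KEAP1 mutant against the control, asks what the substitution does without selenoprotein loss. At an adjusted p under 0.05, Cd74 and H2-T23 rose, 2 of 32 genes against 0.0317% of all tested genes called higher, and 0 fell. By the thresholds of the study 0 of 32 passed with limma, as 0 did with limma voom on the recovered reads, against 0.0127% of all genes in either direction, although 18 genes were higher and 1 lower at an unadjusted p under 0.05, where 4.32% of all tested genes were higher. The median log2 fold change was 0.63 over the 32 genes and -0.0055 over all tested genes.

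Cd74 had 1102, 687, 617 and 423 normalized counts in the control, below the KEAP1 mutant values given above. Its log2 fold change was 1.51 ± 0.25 (by limma, adjusted p = 0.0367), to 2.85 times the control level. H2-T23 had 2524, 2229, 2234 and 1814 in the control and changed by 0.83 ± 0.15 (by limma, adjusted p = 0.047). Both genes were higher in every KEAP1 mutant liver than in every control liver. The calls were close to the threshold: Cd74 lost its call in 9 and H2-T23 in 12 of 16 fits that left out 1 library each, among them every fit without a KEAP1 mutant library. Without both high Igtp libraries the log2 fold changes were 1.41 and 0.75 (by limma, adjusted p = 0.319 and 0.347).

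Values of every control liver lay below every KEAP1 mutant liver in 11 of 32 genes, against 3.19% of all tested genes. They were Cd74, H2-Aa, H2-Ab1, H2-DMb1, H2-Eb1, H2-D1, H2-Q4, H2-T23, Tap1, Ciita and Nlrc5. All 8 tested class II genes were positive, with a median of 1.21, and H2-Ab1 had the second most positive log2 fold change of the 32 (1.32 ± 0.28, control 351, 178, 195 and 126 normalized counts, limma adjusted p = 0.112). H2-D1 had 5914, 4802, 3725 and 4166 normalized counts in the control and a log2 fold change of 0.81 ± 0.16 (by limma, adjusted p = 0.0764). For H2-K1, with 6659.7, 5777, 4793 and 4212 in the control, the groups overlapped and the change was 0.59 ± 0.19 (by limma, adjusted p = 0.335).

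Nlrc5 ran narrowly in the control, at 357, 359.6, 309 and 332 normalized counts, and its log2 fold change was 0.86 ± 0.17 (by limma, adjusted p = 0.0838). Ciita had 47.6, 27.3, 30 and 22.4 in the control and a log2 fold change of 1.27 ± 0.29 (by limma, adjusted p = 0.15), and Tap1 had 414, 288, 218 and 185 and 1.24 ± 0.27 (by limma, adjusted p = 0.13). None of the 3 passed.

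Only 4 of the 32 genes were lower in the KEAP1 mutant, all of them class Ib or other heavy chains, namely H2-Q2, H2-Q10, H2-Q1 and H2-K2. H2-Q10 had 15599, 15105, 14499 and 8998 normalized counts in the control, all above the KEAP1 mutant values. It was the single gene among the 32 with all KEAP1 mutant livers below the control, a pattern of 3.04% of all tested genes. Its log2 fold change was -0.81 ± 0.32 (by limma, adjusted p = 0.454), and H2-Q2, with 3.81, 13.7, 15 and 12.4 against 2.61, 5.75, 1.63 and 7.65 normalized counts, changed by -0.84 ± 0.50 (by limma, adjusted p = 0.652).

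Values of interferon-responsive genes and of cell markers are given beside the class II result. Of the 24 interferon genes, 20 were higher in the KEAP1 mutant (median 0.22), 0 at an adjusted p under 0.05 and 4 at an unadjusted p under 0.05 with limma. All 8 B cell markers were higher in the KEAP1 mutant (median log2 fold change 1.49), 6 of them with no overlap, against 3.19% of all tested genes. With limma 0 passed an adjusted p of 0.05 and 7 were at an unadjusted p under 0.05, where 4.32% of all tested genes were higher. Their sum was 135 to 241 normalized counts in the control and 341 to 802 in the KEAP1 mutant, and Fcrla was at 0 in 2 of the 16 libraries. Ighm, the IgM heavy chain, had 97.1, 51.2, 75.9 and 72.1 against 172, 357, 157 and 196 normalized counts. Dendritic cell markers had a median of 0.01, with sums of 362 to 410.3 and 297 to 397, and Kupffer cell markers one of 0.24, with sums of 5826 to 12501 and 7269 to 17035. T and natural killer cell markers were higher in 8 of 8 tested (median 0.55) and monocyte and neutrophil markers in 8 of 8 (median 0.84), with 0 of either at an adjusted p under 0.05 and 1 of each at an unadjusted p under 0.05. Over all 15781 tested genes, 682 were higher and 749 lower at the latter limit by limma. The part of these cells in the class II values was not tested.

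**Figure D4:**
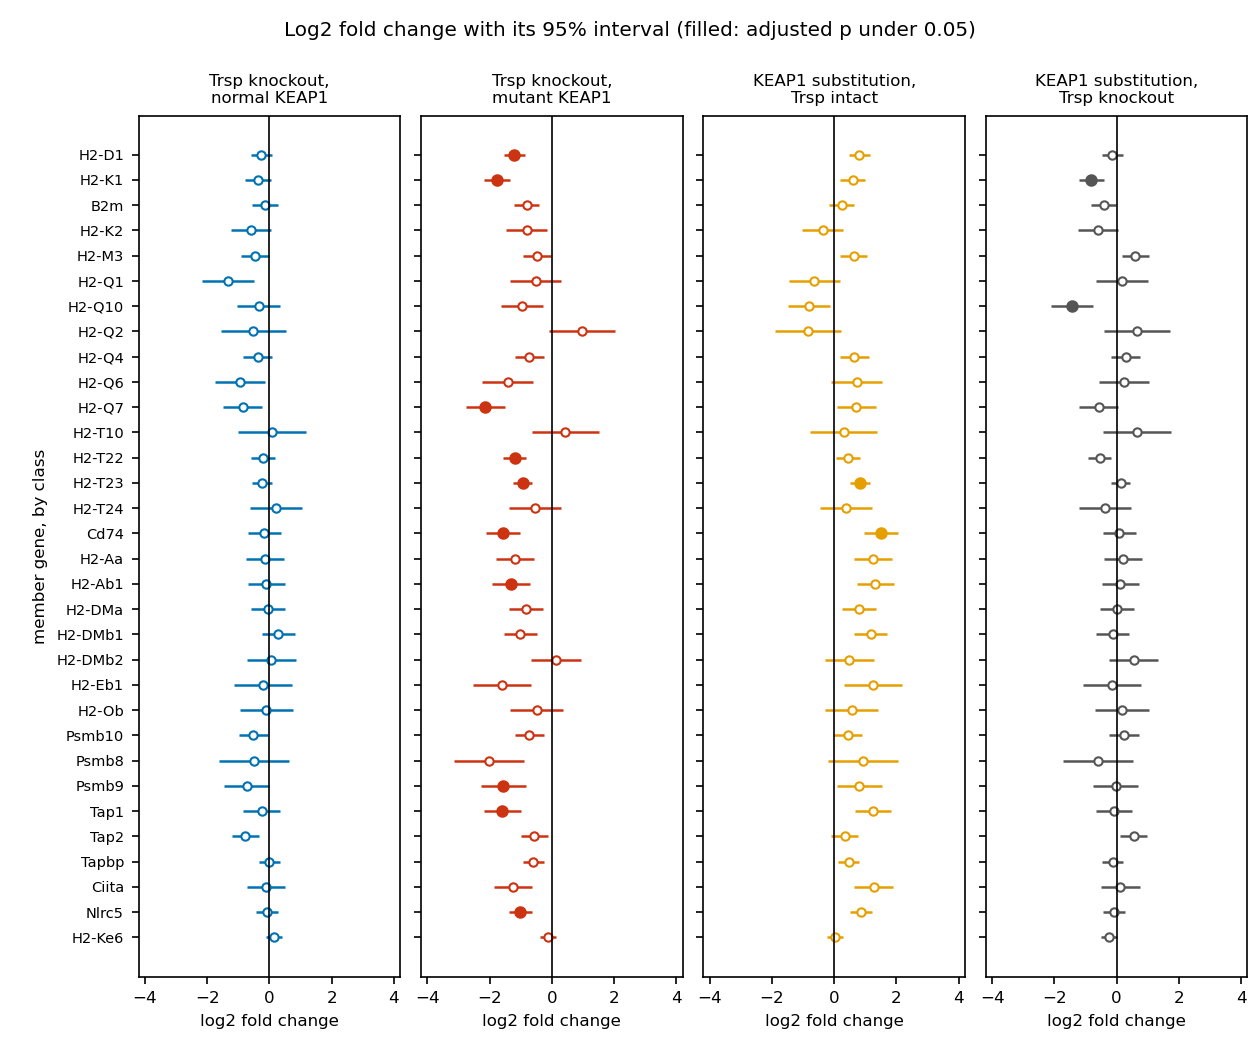
Log2 fold change (horizontal axes, log2 of normalized count + 4) of the 32 tested genes (vertical axis, by class) in the 4 comparisons, with 95% intervals from limma; filled points have an adjusted p under 0.05. With mutant KEAP1 the knockout effect has 10 filled points, all negative, and with normal KEAP1 it has 0.

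With normal KEAP1, the loss of Trsp gave no call among these genes. In the Trsp knockout against the control, 0 of 32 genes passed the thresholds of the study and 0 passed an adjusted p of 0.05, with limma and with limma voom on the recovered reads. Over all tested genes 0.215% passed the former and 0.558% the latter, in either direction. At an unadjusted p under 0.05, 7 genes were lower and 0 higher with limma, where 5.41% of all tested genes were lower. Limma voom had 4 lower at this limit, and its share over all tested genes was not counted. The median log2 fold change was -0.22 and 27 of 32 were negative, beside a median of -0.015 over all tested genes.

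Tap2 came nearest to a call. It had 108, 181, 158 and 112 normalized counts in the control and 65.8, 91.8, 61.1 and 101 in the Trsp knockout, the single gene of the 32 with every knockout liver below every control liver, a pattern of 2.62% of all tested genes. The log2 fold change was -0.77 ± 0.20 (by limma, adjusted p = 0.13). H2-Q1 had the most negative log2 fold change, with 255, 296, 181 and 98.2 against 31.4, 64.3, 124 and 116 normalized counts and a value of -1.33 ± 0.39 (by limma, adjusted p = 0.197). H2-Q6 followed at -0.94 ± 0.38, and H2-Q7 at -0.86 ± 0.29 had 338, 200.3, 184 and 187 against 91.1, 70.8, 129.7 and 240.1 normalized counts. Trsp knockout replicate 4 was the highest of its group for H2-Q6, H2-Q7 and H2-K1 and overlapped the control in each. Without that library H2-Q7 was at -1.18 (by limma, adjusted p = 0.0421), the only call that leaving out 1 library made in this comparison.

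H2-K1 had 3842, 3152, 4062 and 5710.1 normalized counts in the Trsp knockout, and its log2 fold change of -0.37 had a 95% interval from -0.78 to 0.04. For H2-D1, with 4173, 3141, 3389.8 and 4785, the interval ran from -0.60 to 0.07, and for Cd74, with 600.3, 413, 627 and 818, from -0.70 to 0.38. Class II genes had a median of -0.10, and the most positive values, 0.29 for H2-DMb1 and 0.22 for H2-T24, did not pass. H2-Q10 spanned 5651 to 17339 normalized counts in the Trsp knockout, the widest range of that gene in any genotype. Nlrc5 had a log2 fold change of -0.08 with an interval from -0.44 to 0.29.

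In livers with Trsp deleted in hepatocytes, the KEAP1 substitution went with lower H2-K1 and H2-Q10. At an adjusted p under 0.05 these 2 of 32 genes were lower in the compound mutant than in the Trsp knockout, against 1.29% of all tested genes, and 0 were higher. H2-K1 changed by -0.81 ± 0.19 (by limma, adjusted p = 0.0413) and H2-Q10, with 5651, 8297, 14604 and 17339 normalized counts in the Trsp knockout, by -1.44 ± 0.32 (by limma, adjusted p = 0.0292). Both groups of values overlapped, by 1 compound mutant liver (replicate 4) in each gene. Without the 2 H2-Ea libraries the limma adjusted p was 0.395 for H2-K1 and 0.363 for H2-Q10, and without the 2 high Igtp libraries 0.0624 and 0.0538. Of 16 fits that left out 1 library each, H2-K1 lost its call in 10, and H2-Q10 in the 5 without Trsp knockout replicates 3 or 4 or compound mutant replicates 1, 2 or 3. By the thresholds of the study 0 of 32 passed with limma and with limma voom, against 0.57% of all genes, and at an unadjusted p under 0.05 limma had 5 lower and 2 higher, where 9.15% of all tested genes were lower. Over all 32 genes 16 were lower and 16 higher. Limma voom gave 12 lower and 20 higher, but it scaled by library totals, which put the median of all tested genes at 0.13.

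Class II and peptide supply genes showed little difference there, with medians of 0.10 and -0.06. Cd74 had a log2 fold change of 0.09 with a 95% interval from -0.45 to 0.63. B cell markers were higher in 7 of 8 (median 0.92). Among them Pax5, a B cell transcription factor, passed at 1.44 ± 0.32 (by limma, adjusted p = 0.0289, and 0.371 without the 2 H2-Ea libraries). The part of B cells in the class II values was not tested. H2-M3, which presents formylated peptides, had 22.3, 19.7, 35.4 and 33.5 normalized counts in the Trsp knockout and 42.9, 50.3, 43.97 and 36.01 in the compound mutant. It was the single gene of the 32 with every compound mutant liver above every Trsp knockout liver, a pattern of 4.53% of all tested genes, and its log2 fold change of 0.60 ± 0.21 did not pass (by limma, adjusted p = 0.152). The most positive values were those of H2-T10 (0.65) and H2-Q2 (0.65), which rested on the H2-Ea libraries.

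Whether the Trsp knockout effect differed between the KEAP1 genotypes was tested as an interaction. With limma, 0 of 32 genes passed the thresholds of the study and 0 passed an adjusted p of 0.05, and limma voom gave 0 for both, against 0.057% and 0.0951% of all tested genes. At an unadjusted p under 0.05, 16 of 32 were more negative with mutant KEAP1 with limma, where 5.29% of all tested genes were more negative. Limma voom had 12 more negative at this limit, and its share over all tested genes was not counted. The median difference of the 32 effects was -0.73 on the log2 scale. H2-K1 came nearest, with a difference of -1.40 ± 0.27 (by limma, adjusted p = 0.099), followed by H2-D1 at -0.94 ± 0.22 (by limma, adjusted p = 0.204). Leaving out Trsp knockout replicate 2 or compound mutant replicate 4 brought H2-K1 under 0.05 (by limma, adjusted p = 0.0423 and 0.0214). With all libraries, the calls made with mutant KEAP1 and not with normal KEAP1 were not shown to differ between the KEAP1 genotypes after adjustment.

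Compound mutant replicates 2 and 3 differed from all other libraries in a handful of H2 region genes. H2-Ea, the I-E alpha chain, had 0.93, 51.1, 48.5 and 3.0 normalized counts in the 4 compound mutant livers, and it is known that some H2 haplotypes, that of C57BL/6 among them, do not transcribe this gene. H2-T10 had 7.46, 52.03, 39.4 and 10 in the compound mutant, against 3.75 to 19.3 in the control, 6.56 to 28.5 in the Trsp knockout and 10.5 to 17.3 in the KEAP1 mutant. H2-Q2 had 2.8, 22.9, 33.9 and 5.0 in the compound mutant, and its next highest value was 15 in the control.

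Outside the set, H2-T-ps had 38.8 and 26.6 normalized counts in these libraries and 0 to 9.32 elsewhere, and 3 more genes, chosen after their values were seen, behaved alike. They were Gm11127 (118 and 117, at most 21.1 elsewhere), Gm10499 (56.4 and 54.96, at most 10.5 elsewhere) and Gm8909 (16.8 and 23.8, 0 elsewhere). The H2 haplotypes of the mice are not given in the sources used here, and their part in the class I and class II results was not tested.

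**Figure D5:**
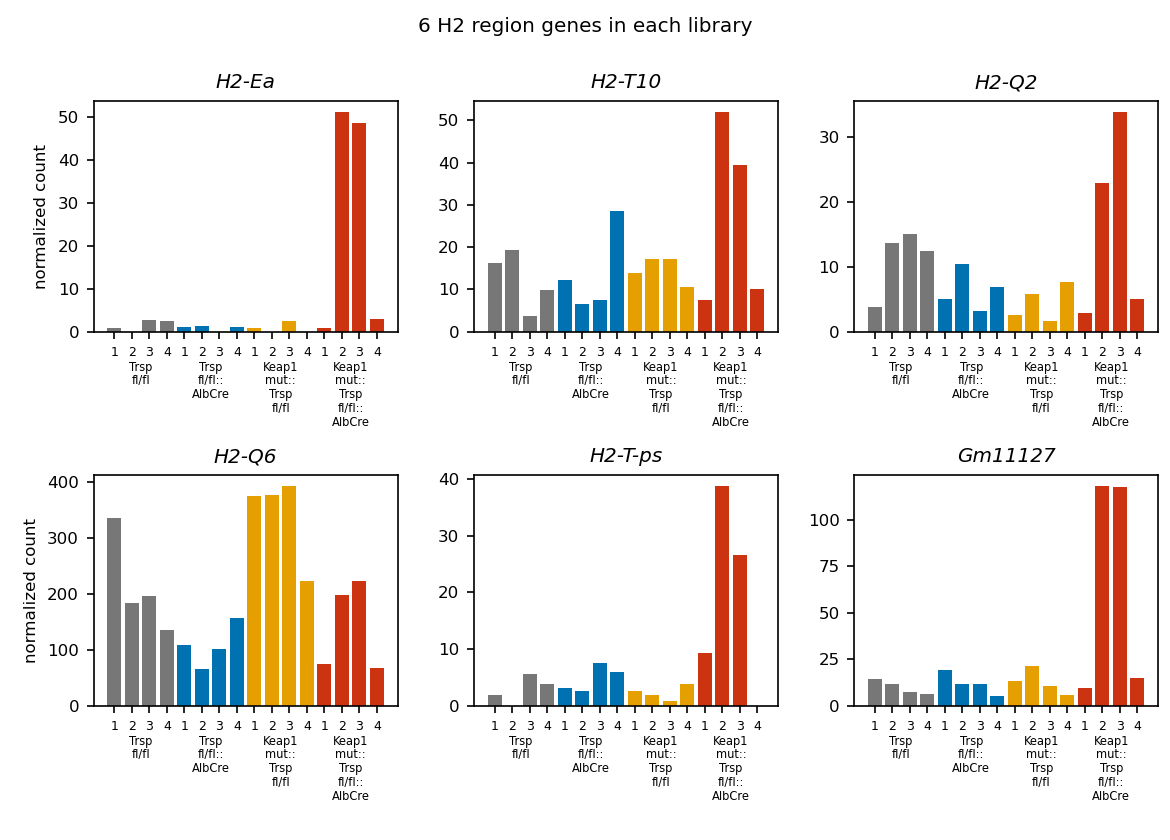
Normalized counts (vertical axes, from 0) of 6 H2 region genes in each of the 16 libraries (bars, by genotype and replicate number); "Keap1 mut" is Keap1 C226S&C613S homo. H2-Ea, H2-T10, H2-Q2, H2-T-ps and Gm11127 are highest in compound mutant replicates 2 and 3, and H2-Q6 is higher there than in the other 2 compound mutant libraries.

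The 3 genes that failed the filter were H2-Ea, H2-Oa and H2-Q5. H2-Oa, a chain of the peptide editor H2-O, had 0 to 7.67 normalized counts in all 16 libraries. H2-Q5 had 20.9, 7.67, 17.1 and 4.78 in the KEAP1 mutant and 1.86, 0.88, 0 and 1.0 in the compound mutant, with 2.49 to 10.2 in the control and 0 to 2.14 in the Trsp knockout. These counts are low, and the 3 genes entered only the fit without a filter. There H2-Q5 was lower in the compound mutant than in the KEAP1 mutant (-1.64 ± 0.33, limma adjusted p = 0.0337), and H2-Ea and H2-Oa passed in no comparison. H2-Ob, the partner of H2-Oa, passed the filter with 4.69 to 12.4, 1.31 to 12.9, 7.67 to 20.4 and 5.0 to 18.3 in the control, Trsp knockout, KEAP1 mutant and compound mutant, and H2-DMb2 lay between 6.43 and 37.04 over all 16 libraries. Neither gene passed in any comparison. H2-Q2 passed the filter only through 3 control, 1 Trsp knockout and 2 compound mutant libraries. H2-Ke6, the enzyme gene in the H2 region, had log2 fold changes between -0.25 and 0.16 in the 4 comparisons, with no call.

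Other genes of the 2 presentation pathways, listed apart from the 35, gave few calls. In the class I list of 15 (proteasome, chaperones and trimming enzymes), 1 gene passed in the comparison of the compound mutant with the KEAP1 mutant, and the list median was 0.09. That gene was Erap1, which trims peptides in the endoplasmic reticulum, with 2503, 2804, 2323 and 2909.6 against 1321, 1746, 1718 and 1901 normalized counts and a log2 fold change of -0.66 ± 0.12 (by limma, adjusted p = 0.0178). Every compound mutant liver was below every KEAP1 mutant liver for Erap1, and the limma adjusted p was 0.105 without the 2 H2-Ea libraries and 0.163 without the 2 high Igtp libraries. Against the Trsp knockout, the constitutive proteasome subunit Psmb5 was lower in the compound mutant (-0.60 ± 0.11, limma adjusted p = 0.00915, and 0.172 without the 2 H2-Ea libraries).

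Of 5 class I-like genes outside the H2 region, Cd1d1, which presents lipids to natural killer T cells, was called in both comparisons of the compound mutant. It had 1489, 928, 1509 and 1646 normalized counts in the Trsp knockout, 1274, 1404, 1264 and 1263 in the KEAP1 mutant and 432, 722, 561 and 648 in the compound mutant. The compound mutant values lay below all 12 other libraries, with log2 fold changes of -1.16 ± 0.21 against the KEAP1 mutant (by limma, adjusted p = 0.0157) and -1.22 ± 0.21 against the Trsp knockout (by limma, adjusted p = 0.00517). The call against the KEAP1 mutant was lost without the 2 H2-Ea libraries (0.0753), the 2 high Igtp libraries (0.103) or compound mutant replicate 1 (0.0543), whereas that against the Trsp knockout was kept in all 3 cases (limma adjusted p). In the class II list of 16 genes measured (endosomal proteases, RFX and CREB factors), 0 passed against the KEAP1 mutant and the median was 0.0036. Creb1 alone was called in the comparison with the Trsp knockout (0.46 ± 0.09, limma adjusted p = 0.01003, and 0.174 without the 2 H2-Ea libraries).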

How the data were processed

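Liver RNA was depleted of rRNA and made into directional libraries. Reads were quantified by the study with Salmon on GENCODE mouse transcripts and passed through iDEP. The deposited table holds log2 values from the authors, namely log2 of reads over a size factor, plus 4. Undoing this transformation gave whole reads for 100% of values up to 20 reads (within 0.1 of a whole number), with 11386721 to 19164140 reads per library. Of 18578 entries, 369 had no identifier and took 0.274% to 0.627% of the reads. They were left out. Genotypes were taken from the sample titles.

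The deposited log2 values of all 16 libraries were fitted together with limma 3.58.1 (R 4.3.3; a mean for each genotype, eBayes with trend, Benjamini-Hochberg adjustment over 15781 genes with at least 10 normalized counts in 4 libraries). The thresholds of the study (absolute log2 fold change over 1, adjusted p under 0.01) and an adjusted p under 0.05 were used. This limma fit is not the test that the paper ran on iDEP. At the same thresholds the paper called more genes in the Trsp knockout and in the KEAP1 mutant, each against the control. All counts of calls given here are those of the fits described here. The limma step was tested on simulated data. Promoter motifs were searched in RefSeq sequences of GRCm38.p6, and places were taken from GENCODE M21, another release than the one used for quantification. Tables were made with Python 3.11.15, pandas 2.3.3 and matplotlib 3.10.9.

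The set is defined by symbol, but it and the lists, markers and tests were chosen with earlier results of these data known. Named with values were 20 genes given by symbol, every other gene of the set with an adjusted p under 0.05 or groups that did not overlap in any comparison, the 2 largest rises and falls in each comparison, the genes that failed the filter, and from each other list up to 3 genes a comparison at an adjusted p under 0.05. Alternatives were pseudocounts of 1 and 0.5, no filter, quantile normalization, only the groups compared, eBayes without trend, a replicate block and each library left out. Added after seeing the data were limma voom on the recovered reads, scaling by library totals, and leaving out both H2-Ea or both high Igtp libraries, also for called genes of the other lists.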

Additional observations from a re-analysis of the deposited data

Results flagged for a closer look

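In 9 of 128 groups of 4 libraries (32 genes in 4 genotypes), a single library lay farther from the rest than Dixon's 95% limit allows, where chance gives about 1 in 20, or 6.4 groups. Values here are log2(normalized count + 4).

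Class Ib genes made up 6 of the 9. H2-Q10 was lowest in control replicate 4 (13.14, nearest 13.82) and highest in compound mutant replicate 4 (12.71, nearest 11.71), and the latter liver is the one that overlaps the Trsp knockout for this gene. H2-Q1 was lowest in compound mutant replicate 1 (5.69, nearest 6.62), H2-Q2 lowest in control replicate 1 (2.96, nearest 4.04), H2-Q6 lowest in KEAP1 mutant replicate 4 (7.83, nearest 8.57) and H2-Q7 highest in control replicate 1 (8.42, nearest 7.67). In class II, H2-DMb1 was highest in KEAP1 mutant replicate 4 (6.94, nearest 6.33), and H2-Ob lowest in Trsp knockout replicate 2 (2.41, nearest 3.82), where it had 1.31 normalized counts. Psmb10 was highest in Trsp knockout replicate 4 (8.20, nearest 7.82).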

How the results depend on the processing

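For the compound mutant against the KEAP1 mutant, 5 genes passed the thresholds of the study. The count was 3 with eBayes without trend, 2 with a replicate block, 1 without both H2-Ea libraries (H2-T23, 0 of the 5), 1 without both high Igtp libraries (H2-K1), and 2 to 6 with each library left out (2 without KEAP1 mutant replicate 1, 3 without KEAP1 mutant replicate 2, 3 without KEAP1 mutant replicate 3, where 2 of the 5 stayed and Nlrc5 was added, and 3 without compound mutant replicate 1 or 3). The count at an adjusted p under 0.05 was 10, and 3 without both high Igtp libraries and 7 to 12 with each library left out. H2-K1, H2-D1 and H2-Q7 stayed under an adjusted p of 0.05 in all 27 alternatives (16 libraries left out, 11 others). For the KEAP1 mutant against the control, the count at an adjusted p under 0.05 was 2, and 1 with a pseudocount of 1, 1 with a pseudocount of 0.5, 1 with no filter, and 0 with only the groups compared, eBayes without trend, the replicate block or both high Igtp libraries left out. With each library left out, 0 to 3 passed this limit (Nlrc5 alone without KEAP1 mutant replicate 3) and 0 to 1 the thresholds of the study (Cd74 without control replicate 1). For the compound mutant against the Trsp knockout, the count was 2, and 1 (H2-Q10) with eBayes without trend, the replicate block, limma voom or scaling by library totals, and 0 with quantile normalization, only the groups compared, or either pair of libraries left out. With each library left out, 0 to 2 passed this limit and 0 to 1 the thresholds of the study (H2-Q10 without Trsp knockout replicate 1 or compound mutant replicate 4). For the Trsp knockout against the control and for the difference of the knockout effects, 0 to 1 passed an adjusted p of 0.05 with each library left out.

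Same-numbered libraries did not deviate together (correlations -0.32 to 0.16), so replicate numbers were not taken as pairs. Scaling by library totals moved the median log2 fold change of all genes by over 0.1 in the comparisons of the compound mutant (to 0.12 against the KEAP1 mutant and 0.13 against the Trsp knockout), the difference of the knockout effects to 0.13, and the median of the 32 genes in the compound mutant against the Trsp knockout from -0.0062 to 0.12. Limma voom on the recovered reads also scaled by library totals. Its all-gene medians were 0.12 against the KEAP1 mutant, 0.13 against the Trsp knockout and 0.14 for the difference of the knockout effects. No called gene changed direction in any alternative. The cause of the lost calls was not tested. Genes with few counts, such as H2-Ob, H2-Q2 and H2-DMb2, are limited by depth.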

Other observations

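Of 8 monocyte and neutrophil markers, 8 were higher in the compound mutant than in the Trsp knockout, with a median log2 fold change of 2.02. S100a8, a calcium-binding protein of neutrophils, was the one called (2.05 ± 0.47, limma adjusted p = 0.0339, with 0.37 without both H2-Ea libraries and 0.0887 without compound mutant replicate 1). Of 6 erythroid markers, 6 were lower in the Trsp knockout than in the control (median -1.18) and 6 lower in the KEAP1 mutant than in the control (median -1.14), with 0 at an adjusted p under 0.05 by limma and 5 and 3 at an unadjusted p under 0.05. Of all 15781 tested genes, 854 and 749 were lower at the latter limit in these comparisons. In the compound mutant against the KEAP1 mutant, 6 sinusoidal endothelial, 4 cholangiocyte and 4 stellate cell markers had medians of -0.04, 0.20 and -0.18, with 0 at an adjusted p under 0.05 by limma and 0, 0 and 1 at an unadjusted p under 0.05. There 1117 of all 15781 tested genes were lower and 1029 higher at the latter limit.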
